A study of Mus musculus with 9 samples.

Results

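Genes that encode amino acid transporters of the plasma membrane and the lysosome were followed in mouse heart over 3 ages. The genes were chosen by symbol, as probe sets with a single gene symbol beginning Slc1a, Slc3a, Slc7a, Slc36a, Slc38a or Slc43a and a digit, and the probe set with the highest mean was used for each gene. The rule found 44 probe sets for 42 of the 19938 genes tested, and it does not hold every gene of these families. One of the 42, Slc7a6os, is the gene opposite Slc7a6 and encodes no transporter, so 41 transporters remained. Total RNA of heart muscle came from mice of the inbred strain C57BL/6 at 24 hours, 7 days and 10 weeks of age, and 3 Affymetrix Mouse Gene 1.0 ST arrays were run per age, 9 in all. All groups share the strain, and no allele or treatment is named for any of them. Each value is a log2 signal as deposited, in which a difference of 1 is a 2-fold change, and signals of different probe sets are not compared here. Whether arrays of one age hold separate animals, and how many hearts each holds, is not stated in the labels, so p-values measure only the spread between these samples, which may be technical.

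Amino acids cross membranes through several families of carriers. Members of the SLC38 and SLC1 families use the sodium gradient to bring amino acids into the cell, and some SLC36 carriers move them together with protons. Most SLC7 light chains work only when bound to a heavy chain of the SLC3 family and exchange one amino acid for another, so that glutamine brought in by SLC38 or SLC1 carriers can be traded for leucine and other large neutral amino acids. Leucine, arginine and glutamine are signals to the kinase complex mTORC1, which drives protein synthesis, and glutamine also feeds the synthesis of nucleotides in dividing cells.

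Between 7 days and 10 weeks transporters changed in both directions, with 9 of 42 lower and 4 higher, beside 18.9% of all genes lower and 17.0% higher. Slc38a1, a sodium-coupled carrier of glutamine and alanine, was 5.58-fold lower in 10-week hearts than in 7-day hearts, and Slc38a2, its neighbour on chromosome 15, was 2.17-fold lower. Slc38a3, a glutamine carrier of the same family, was 3.48-fold higher. Slc7a5, the light chain of the leucine exchanger LAT1, and Slc38a5 fell in both steps, while Slc3a2, the heavy chain that LAT1 needs, was called at no step with all 9 arrays. Every one of the 17 transporters called in any comparison is named below (40.5%, with 46.3% of all genes called in any comparison), and the other 25 genes were called in none with all 9 arrays.

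A gene was called where its adjusted p from limma lay under 0.05. In the first week 8 of the 42 genes (19.0%) were called, against 10.1% of all genes tested. Of these, 3 were higher at 7 days, where 5.27% of all genes were higher, and 5 were lower, where 4.81% of all genes were lower. From 7 days to 10 weeks 13 of 42 (31.0%) were called, which is near the 35.9% of all genes. They comprised 4 that were higher at 10 weeks, with 17.0% for all genes, and 9 that were lower, with 18.9% for all genes. Between 10 weeks and 24 hours 14 of 42 (33.3%) were called, against 40.1% of all genes, 5 of them higher with 19.5% for all genes and 9 lower with 20.6% for all genes. Without 24-hour replicate 1 or 24-hour replicate 2 only 1 gene was higher in the first week, and without 24-hour replicate 2 or 7-day replicate 3 only 3 were lower. Between 10 weeks and 24 hours 2 were higher without 24-hour replicate 1 or 2, and 3 without 24-hour replicate 3, 7-day replicate 2, 10-week replicate 1 or 10-week replicate 3. The comparisons share arrays, so their counts are not independent. The median log2 difference of the 42 genes lay near 0 in each, at -0.023, 0.042 and -0.017 for 7-day minus 24-hour, 10-week minus 7-day and 10-week minus 24-hour hearts, and that of all genes at -0.002, 0.039 and 0.038. Over the later step the share of transporters called was thus near the background. With a change of at least 2-fold also required, 1 of 42 was called in the first week, with 0.627% of all genes (1 higher with 0.426%, and 0 lower with 0.201%). The later step had 4, with 5.05% (1 higher with 2.07% and 3 lower with 2.98%), and 10 weeks against 24 hours had 5, with 6.38% (1 higher with 3.0% and 4 lower with 3.39%). The arrays of the ages did not overlap for 13, 15 and 20 of the 42 genes in the 3 comparisons in that order, with 27.1%, 44.3% and 48.2% of all genes. Of the 42 genes, 20 had a mean under 5.57, the median of all gene means, at every age. For such dim genes a difference can be understated, and without detection flags values near background cannot be marked.

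**Figure D1:**
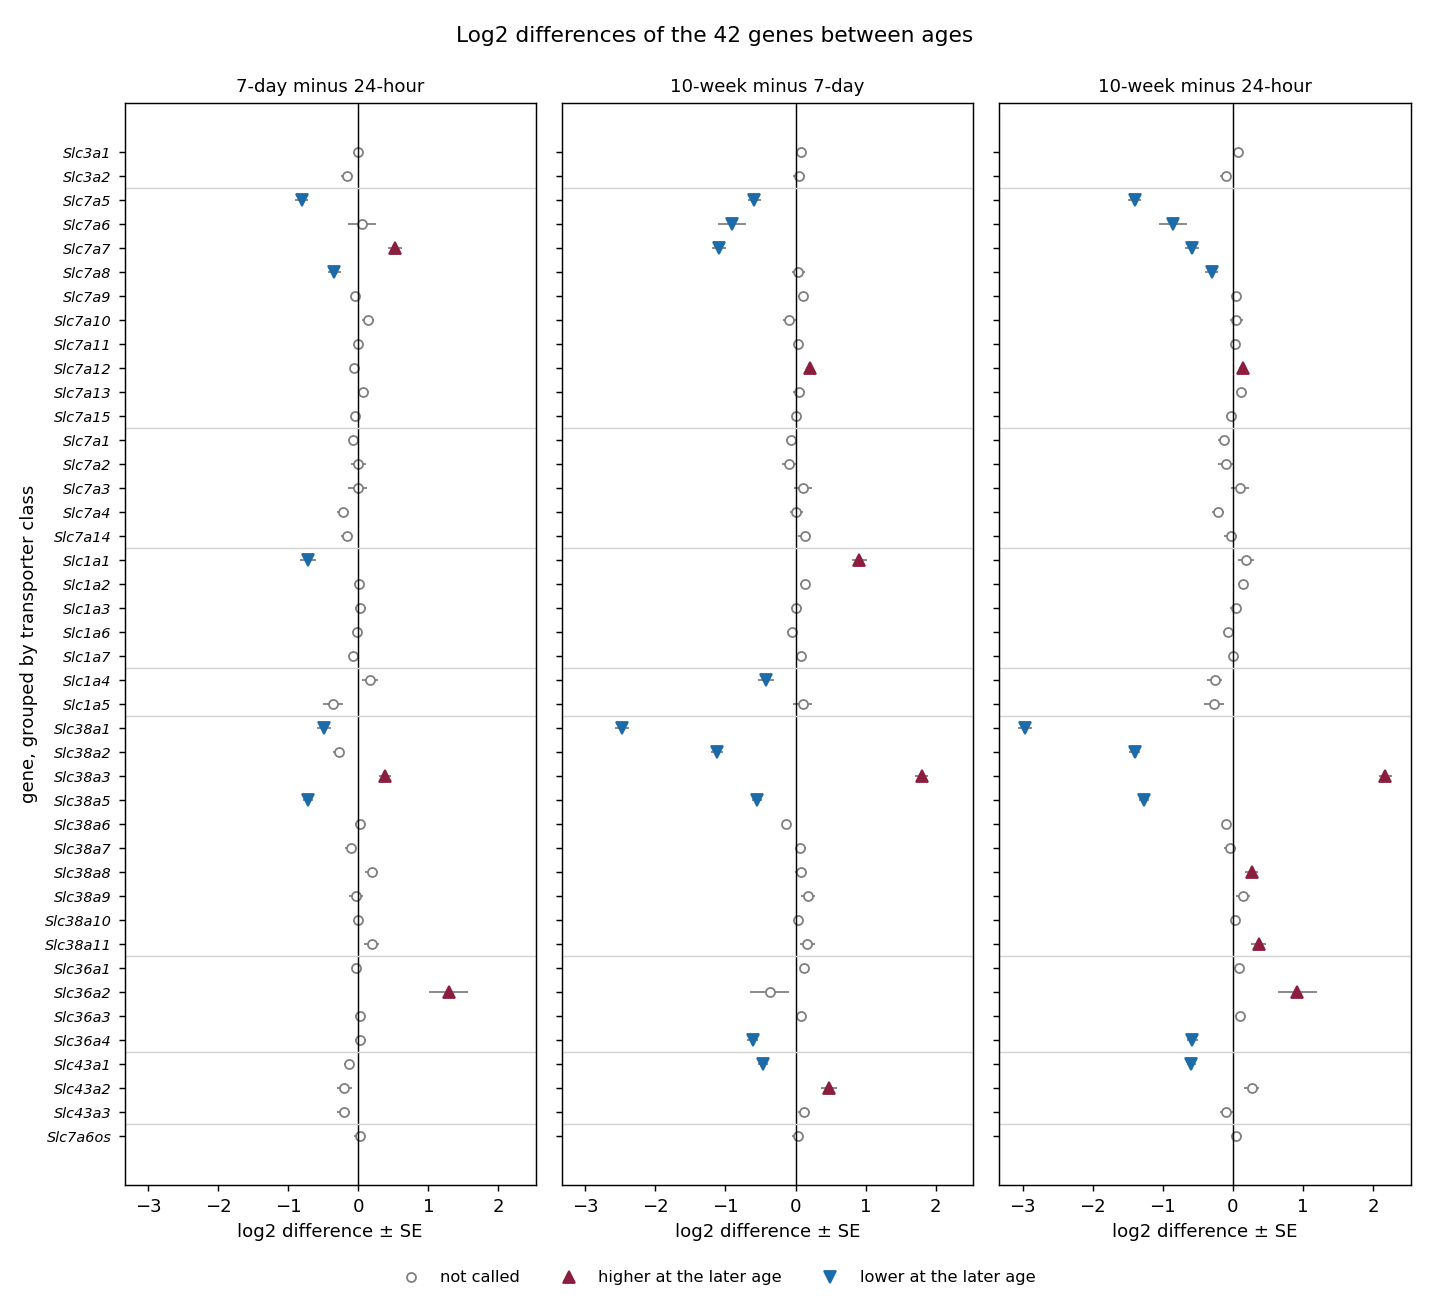
Log2 differences of the 42 genes in the 3 comparisons, grouped by transporter class, with the standard error as a horizontal line. Filled triangles mark called genes (upward for higher and downward for lower at the later age); Slc38a1 at -2.48 and Slc38a3 at 1.80 stand farthest from 0 in the 10-week minus 7-day panel.

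The sodium-coupled neutral carriers of the SLC38 family held the largest differences. Of the 10 members, 1 was higher and 2 were lower at 7 days than at 24 hours, with 5.27% and 4.81% of all genes. At 10 weeks against 7 days 1 was higher and 3 were lower, with 17.0% and 18.9% of all genes. Against 24 hours 3 were higher and 3 lower at 10 weeks, with 19.5% and 20.6% of all genes. Slc38a1 (SNAT1) measured 9.28, 9.32 and 9.31 on the 24-hour arrays, 8.81, 8.80 and 8.83 on the 7-day arrays and 6.17, 6.20 and 6.63 on the 10-week arrays. The ages did not overlap, and the arrays of an age lay within 0.05 of each other at both early ages but spread wider at 10 weeks. From 7 days to 10 weeks the gene fell by 2.48 on the log2 scale (SE 0.10, adjusted p = 7.37e-08), and 10-week hearts were 7.85-fold below 24-hour hearts (adjusted p = 1.31e-08). In the first week it fell by 0.49 (SE 0.10, adjusted p = 0.0142). That early call was lost without 24-hour replicate 2 (-0.48, adjusted p = 0.0592), 24-hour replicate 3 (-0.49, adjusted p = 0.0524) or 7-day replicate 3 (-0.50, adjusted p = 0.0533). A second Slc38a1 probe set gave the same directions, with means of 6.69, 6.20 and 4.50 at 24 hours, 7 days and 10 weeks, and it fell by 1.70 in the later step (adjusted p = 4.99e-07).

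Slc38a2 (SNAT2), the carrier known to be induced when cells lack amino acids, lies next to Slc38a1 with no gene between them. It measured 10.80, 10.87 and 10.72 on the 24-hour arrays, 10.47, 10.50 and 10.57 on the 7-day arrays and 9.20, 9.48 and 9.51 on the 10-week arrays. All 3 10-week arrays lay below every 7-day array, and these below every 24-hour array. In the later step it fell by 1.12 (SE 0.08, adjusted p = 2e-06), and 10-week hearts lay 2.63-fold below 24-hour hearts (adjusted p = 2.83e-07). The first-week difference of -0.28 was not called (adjusted p = 0.0528). It passed the threshold without 10-week replicate 1 (-0.28, adjusted p = 0.0125) or 10-week replicate 3 (-0.28, adjusted p = 0.0407). It also passed with arrays centred on their medians (-0.31, adjusted p = 0.0354) and with quantile normalization (-0.29, adjusted p = 0.0311). The same held with a robust variance prior (adjusted p = 0.0495), only the 6 arrays compared (adjusted p = 0.0167) or dim genes left out (adjusted p = 0.0282). The other settings run left it uncalled.

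Slc38a5 (SNAT5), a system N carrier of glutamine, glycine and serine encoded on the X chromosome, fell in both steps. Its signal was 6.03, 6.18 and 6.06 on the 24-hour arrays, 5.35, 5.38 and 5.38 on the 7-day arrays and 4.72, 4.82 and 4.92 on the 10-week arrays. The ages did not overlap. It fell by 0.72 in the first week (adjusted p = 0.000154) and by 0.55 thereafter (adjusted p = 0.000123), and 10-week hearts were 2.41-fold below 24-hour hearts. Sex-linked transcripts differed with age: Eif2s3y of the Y chromosome ranged from 6.28 to 7.70 at 24 hours, from 6.06 to 7.60 at 7 days and from 2.87 to 3.30 at 10 weeks, while the X-inactivation transcript Xist ranged from 8.30 to 9.37, from 8.26 to 9.56 and from 8.69 to 8.97 at the same ages. Age and the sexes of the animals therefore cannot be told apart at 10 weeks, for X-linked Slc38a5 or for any other gene. Markers of erythroid cells also moved: 4 of 7 were lower at 10 weeks than at 7 days, the mean of the list lay between 4.84 and 5.18 on the 10-week arrays and between 5.95 and 6.06 on the 7-day arrays, and their part in the fall was not tested.

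Slc38a3 (SNAT3), a system N carrier that moves glutamine in either direction, took the opposite course. It measured 6.04, 5.89 and 6.16 on the 24-hour arrays, 6.47, 6.28 and 6.47 on the 7-day arrays and 8.12, 8.16 and 8.33 on the 10-week arrays. The ages did not overlap, and the step to 10 weeks was the larger. It rose by 1.80 in that step (SE 0.09, adjusted p = 1.91e-07), and 10-week hearts were 4.52-fold above 24-hour hearts (adjusted p = 3.29e-08). The first-week rise of 0.38 (adjusted p = 0.0257) was lost without 24-hour replicate 1 (0.38, adjusted p = 0.0755), 24-hour replicate 2 (0.30, adjusted p = 0.106), 7-day replicate 1 (0.34, adjusted p = 0.0893) or 7-day replicate 3 (0.34, adjusted p = 0.105).

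**Figure D2:**
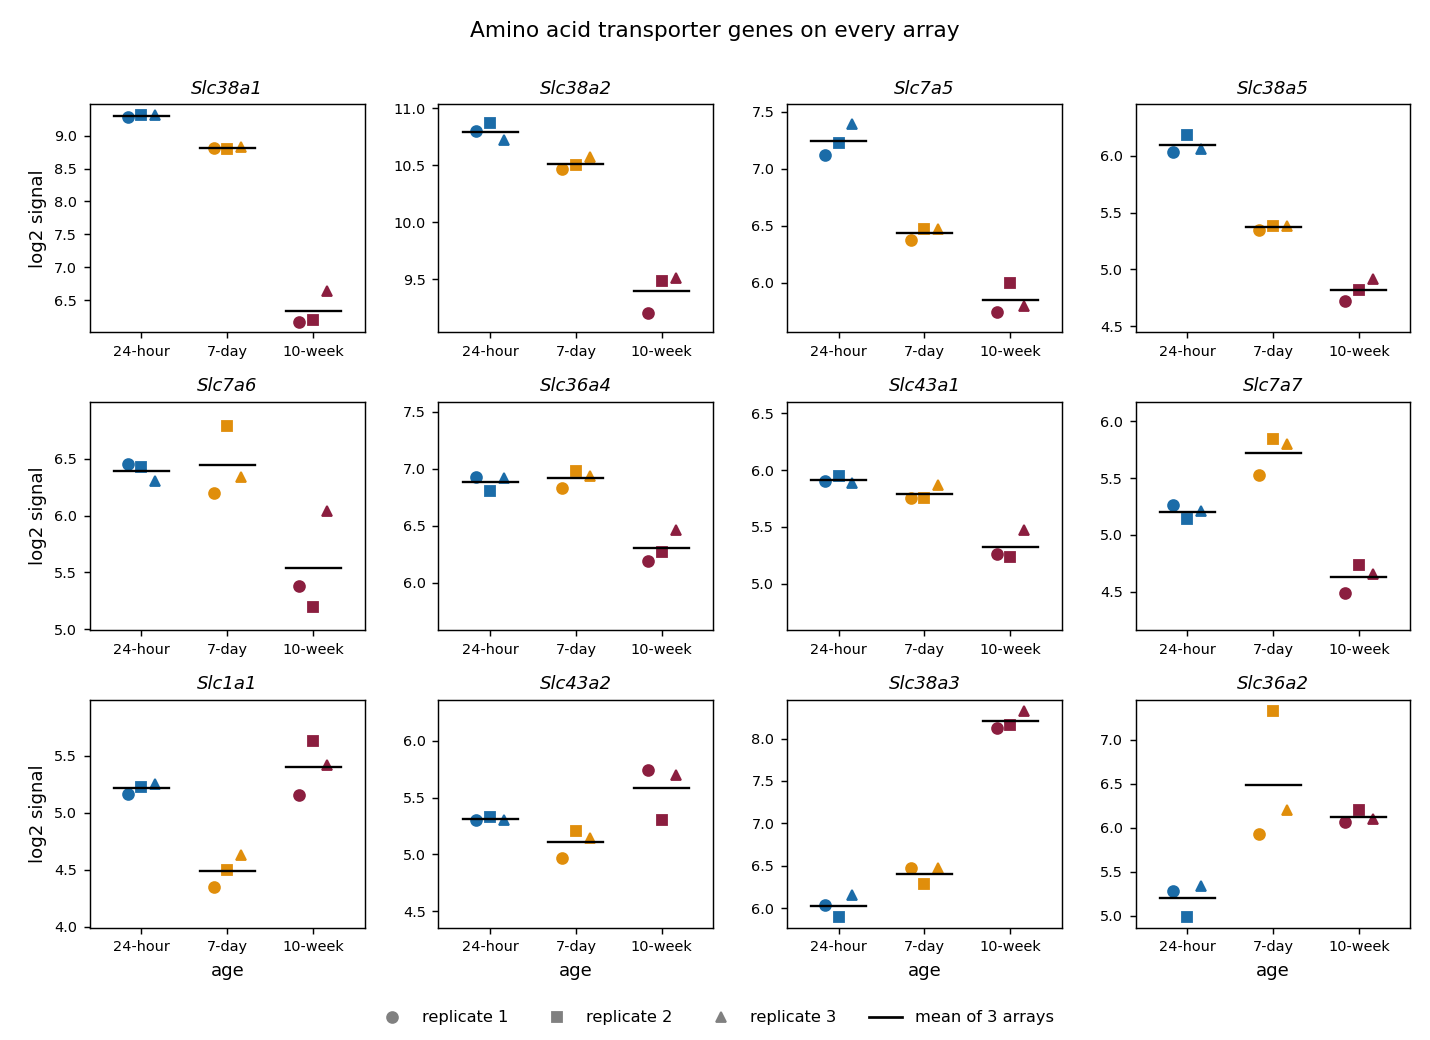
Log2 signal of 12 transporter genes on each of the 9 arrays, by age, with the mean of 3 arrays as a bar and the replicate number as the marker shape; each panel has its own scale. Slc38a1 and Slc38a3 separate the 10-week arrays from the younger ones in opposite directions, and Slc36a2 spreads from 5.93 to 7.33 within the 7-day arrays.

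The other SLC38 members moved little. Slc38a9, the lysosomal arginine sensor upstream of mTORC1, averaged 7.40 ± 0.04 at 24 hours, 7.37 ± 0.06 at 7 days and 7.55 ± 0.23 at 10 weeks (SD, n = 3 each), and neither of its 2 probe sets was called. Without 10-week replicate 2 the later difference of 0.18 became 0.28 and was called (adjusted p = 0.0364). Slc38a7, a lysosomal glutamine exporter, Slc38a6 and Slc38a10 were not called either, and Slc38a10 stayed between 7.47 and 7.54 on all 9 arrays. The dim genes Slc38a8 and Slc38a11 were called for 10 weeks against 24 hours only, at 0.27 (adjusted p = 0.0375) and 0.37 (adjusted p = 0.026). Slc38a8 measured 4.18, 4.40 and 4.20 on the 10-week arrays and 3.90, 4.19 and 3.88 on the 24-hour arrays, which overlap. Its call was lost without any 1 of 6 arrays (24-hour replicates 1 and 3, each 7-day array and 10-week replicate 2), at differences of 0.20 to 0.27 and adjusted p of 0.0507 to 0.136. Quantile normalization or only the 6 arrays compared also lost the call. That of Slc38a11 was lost without 24-hour replicate 2 (0.31, adjusted p = 0.0986), 10-week replicate 1 (0.35, adjusted p = 0.0733) or 10-week replicate 3 (0.27, adjusted p = 0.0898).

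Among the heteromeric exchangers, 5 of 10 light chains and neither heavy chain were called in at least 1 comparison, with 46.3% of all genes. Slc3a2 (CD98, the 4F2 heavy chain) measured 8.58, 8.55 and 8.61 on the 24-hour arrays, 8.20, 8.56 and 8.50 on the 7-day arrays and 8.43, 8.49 and 8.50 on the 10-week arrays. Its lowest value stood on 7-day replicate 1. The difference was -0.16 in the first week (adjusted p = 0.326) and 0.05 in the later step (adjusted p = 0.65). Without both 7-day replicates 2 and 3, which leaves replicate 1, the array with the lowest Slc3a2 value, alone at that age, these became -0.37 (adjusted p = 0.0414) and 0.27 (adjusted p = 0.0329). In that fit the spread comes from the other ages and the lone array is assumed to vary like them, here and wherever both arrays are left out below. Slc3a1, the heavy chain of the renal cystine exchanger, stayed between 3.87 and 4.05.

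Slc7a5 (LAT1), which carries leucine and other large neutral amino acids, measured 7.12, 7.23 and 7.39 on the 24-hour arrays, 6.37, 6.47 and 6.47 on the 7-day arrays and 5.74, 6.00 and 5.79 on the 10-week arrays. The ages did not overlap at either step. It fell by 0.81 in the first week (SE 0.09, adjusted p = 0.00032) and by 0.59 by 10 weeks (adjusted p = 0.000382), and 10-week hearts lay 2.65-fold below 24-hour hearts (adjusted p = 6.01e-07). Slc7a8 (LAT2), a related light chain, measured 6.13, 6.16 and 5.92 on the 24-hour arrays, 5.61, 5.89 and 5.70 on the 7-day arrays and 5.74, 5.73 and 5.84 on the 10-week arrays. Both later ages lay below all 24-hour arrays and overlapped each other. Its first-week difference of -0.34 (adjusted p = 0.041) was lost without 24-hour replicate 1 (-0.31, adjusted p = 0.143), 24-hour replicate 2 (-0.29, adjusted p = 0.157), 7-day replicate 1 (-0.28, adjusted p = 0.142), 7-day replicate 3 (-0.32, adjusted p = 0.14), 10-week replicate 1 (-0.34, adjusted p = 0.0592) or 10-week replicate 2 (-0.34, adjusted p = 0.0525). The difference between 10 weeks and 24 hours, -0.30 (adjusted p = 0.023), was lost without 24-hour replicate 1 or 2 or 10-week replicate 1 or 2, at adjusted p of 0.0651 to 0.0899. Quantile normalization also lost this call. The first-week call of Slc7a8 was also lost with only the 6 arrays compared and with the replicate number as a block.

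Slc7a6 (y+LAT2) and Slc7a7 (y+LAT1) are light chains that exchange cationic for neutral amino acids, and Slc7a7 is known for its expression in macrophages. Slc7a7 measured 5.26, 5.14 and 5.21 on the 24-hour arrays, 5.53, 5.84 and 5.80 on the 7-day arrays and 4.49, 4.74 and 4.66 on the 10-week arrays. It was highest at 7 days and lowest at 10 weeks, with no overlap between ages. The first-week rise was 0.52 (SE 0.10, adjusted p = 0.00675), and without both 7-day replicates 2 and 3 it was 0.32 (adjusted p = 0.231). In the later step it fell by 1.09 (adjusted p = 8.35e-06). Macrophage markers rose in both steps, 8 of 12 in the first week and 11 of 12 by 10 weeks, and the mean of the list ran from 6.40 to 6.54 at 24 hours, from 6.85 to 6.94 at 7 days and from 7.63 to 7.81 at 10 weeks. Slc7a7 thus rose with most of these markers in the first week and fell while most of them rose afterwards. The 1 marker that fell, Cx3cr1, chosen after its values were seen, rose by 0.32 in the first week and fell by 0.29 afterwards. Of 10 fibroblast markers, 5 were higher and 0 lower in the first week, and 0 were higher and 7 lower in the later step. The part of macrophages or fibroblasts in the course of Slc7a7 was not tested. In whole heart RNA, fewer cells of a type and less RNA per cell cannot be told apart.

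Slc7a6 was not called in the first week (0.05, adjusted p = 0.951) and was lower at 10 weeks. It measured 6.45, 6.43 and 6.30 on the 24-hour arrays, 6.20, 6.79 and 6.34 on the 7-day arrays and 5.38, 5.20 and 6.04 on the 10-week arrays. Each 10-week array lay below every younger one, although 10-week replicate 3 was close to them. In the later step it fell by 0.90 (SE 0.20, adjusted p = 0.00554), which without both 7-day replicates 2 and 3 was -0.65 (adjusted p = 0.155). Slc7a6os, the gene opposite it, stayed between 6.06 and 6.40 and was not called, and the strand that each probe set reads was not checked here.

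The remaining light chains were dim. Slc7a11 (xCT), which brings in cystine for glutathione synthesis in exchange for glutamate, lay between 3.39 and 3.51 on all 9 arrays and was not called. Slc7a10 (Asc-1), known in mouse as a surface protein of white fat cells, lay between 4.55 and 4.95, with its highest value on 7-day replicate 2. Slc7a9, Slc7a13 and Slc7a15 were not called. Slc7a12, at 2.75, 2.63 and 2.65 on the 10-week arrays and 2.53, 2.48 and 2.41 on the 7-day arrays, was called as higher by 0.20 (adjusted p = 0.00877). Its difference of 0.14 between 10 weeks and 24 hours (adjusted p = 0.0459) was lost without any 1 of 6 arrays (each 24-hour array, 7-day replicate 2 and 10-week replicates 1 and 3), at adjusted p of 0.0545 to 0.148. That call was also lost without the intensity trend, with a robust variance prior and with quantile normalization. The same held with only the 6 arrays compared and with the replicate number as a block.

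None of the 5 cationic carriers and their relatives was called in any comparison with all 9 arrays. Slc7a1 (CAT1), the widespread arginine and lysine carrier, measured 7.58, 7.54 and 7.51 on the 24-hour arrays, 7.34, 7.44 and 7.64 on the 7-day arrays and 7.42, 7.32 and 7.50 on the 10-week arrays. The 7-day arrays overlapped those of both other ages, and the 10-week arrays lay just below the 24-hour ones. Adjusted p was 0.735 in the first week, 0.604 in the later step and 0.234 between 10 weeks and 24 hours. Slc7a2, Slc7a3, Slc7a4 and Slc7a14 were dim at every age. Leaving out 1 array made calls for Slc7a14 in the later step (0.23, adjusted p = 0.035, without 7-day replicate 2) and for Slc7a4 between 10 weeks and 24 hours (-0.29, adjusted p = 0.0263, without 24-hour replicate 3).

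Among the SLC1 glutamate transporters, Slc1a1 (EAAC1, a sodium-coupled carrier of glutamate, aspartate and cysteine) dipped at 7 days. It measured 5.17, 5.23 and 5.25 on the 24-hour arrays, 4.35, 4.50 and 4.63 on the 7-day arrays and 5.16, 5.63 and 5.42 on the 10-week arrays. All 7-day arrays lay below all others, while the 10-week and 24-hour arrays overlapped. It fell by 0.72 in the first week (SE 0.11, adjusted p = 0.00261) and rose by 0.91 after it (adjusted p = 0.000104). The 10-week difference from 24 hours of 0.19 was not called (adjusted p = 0.223), but without 10-week replicate 1 it was 0.31 (adjusted p = 0.0357). Slc1a3 (GLAST) lay between 4.75 and 5.0 on all arrays, and with Slc1a2, Slc1a6 and Slc1a7 it was not called. Without 10-week replicate 3, Slc1a2 was called at 10 weeks against 7 days (0.20, adjusted p = 0.0241) and against 24 hours (0.22, adjusted p = 0.0168). All 5 glutamate transporters had means under 5.57 at every age.

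The neutral exchangers Slc1a5 (ASCT2), a route of glutamine uptake in proliferating cells, and Slc1a4 (ASCT1), a serine and alanine carrier, changed less. Slc1a5 measured 7.29, 7.44 and 7.42 on the 24-hour arrays, 6.76, 7.42 and 6.89 on the 7-day arrays and 6.99, 7.22 and 7.14 on the 10-week arrays. The 7-day replicate 2 stood with the 24-hour arrays and apart from the other 7-day arrays. With all arrays no difference was called, at -0.36 in the first week (adjusted p = 0.17), 0.10 in the later step (adjusted p = 0.638) and -0.27 between 10 weeks and 24 hours (adjusted p = 0.174). Without 7-day replicate 2 they were -0.56 (adjusted p = 0.00477), 0.29 (adjusted p = 0.029) and -0.27 (adjusted p = 0.022), each called. Slc1a4 measured 4.30, 4.61 and 4.77 on the 10-week arrays and 4.82, 5.08 and 5.04 on the 7-day arrays, without overlap, and fell by 0.42 (adjusted p = 0.0139), a call lost without 7-day replicate 2 (-0.37, adjusted p = 0.0544) or 7-day replicate 3 (-0.39, adjusted p = 0.0529). Its difference between 10 weeks and 24 hours was called only without 10-week replicate 3 (-0.36, adjusted p = 0.0248).

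Of the SLC36 carriers, Slc36a2 (PAT2, a glycine and proline carrier known in mouse as a surface protein of beige and brown fat cells) rose most among the 42 genes in the first week. Its signal was 5.28, 4.98 and 5.34 on the 24-hour arrays, 5.93, 7.33 and 6.20 on the 7-day arrays and 6.06, 6.20 and 6.10 on the 10-week arrays. Both later ages lay above all 24-hour arrays, and 7-day replicate 2 stood above the rest. The first-week difference was 1.29 (SE 0.28, adjusted p = 0.0172), the 1 change of at least 2-fold in that step. Without 7-day replicate 2 it was 0.87 (adjusted p = 0.00313), still called but below 2-fold, so that no gene of the 42 then passed both limits. The call was lost without 24-hour replicate 1 (1.33, adjusted p = 0.0557) or 24-hour replicate 2 (1.18, adjusted p = 0.0765), and with only the 6 arrays compared.

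Fat transcripts moved on the same arrays. The brown fat gene Ucp1 had signals of 4.30, 11.23 and 9.27 at 7 days. The mean of 8 fat markers lay between 5.29 and 5.34 at 24 hours, was 5.39, 7.50 and 6.39 on the 7-day arrays and lay between 5.44 and 5.87 at 10 weeks. Adipoq and Plin1, chosen after their values were seen, were also highest on 7-day replicate 2, at 7.71 and 7.48. Without 7-day replicates 2 and 3, which leaves 1 array at that age, the Slc36a2 difference was 0.73 (adjusted p = 0.0503). Slc36a2 was also 0.92 higher at 10 weeks than at 24 hours (adjusted p = 0.0251). Ucp1 lay between 3.92 and 4.23 on the 10-week arrays and between 4.09 and 4.27 on the 24-hour arrays, while Retn, another fat gene, measured 6.14, 6.53 and 4.43 on the 10-week arrays and 4.03, 4.09 and 3.94 on the 24-hour arrays (1.68 higher, adjusted p = 0.00837), and Adipoq measured 4.57, 5.04 and 3.95 against 3.78, 3.75 and 3.77. The part of fat transcripts in either Slc36a2 difference was not tested. The 10-week call was lost without 24-hour replicate 1 (0.96, adjusted p = 0.0569), 24-hour replicate 2 (0.81, adjusted p = 0.0905), 10-week replicate 1 (0.95, adjusted p = 0.0578), 10-week replicate 2 (0.88, adjusted p = 0.0751) or 10-week replicate 3 (0.93, adjusted p = 0.058).

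**Figure D3:**
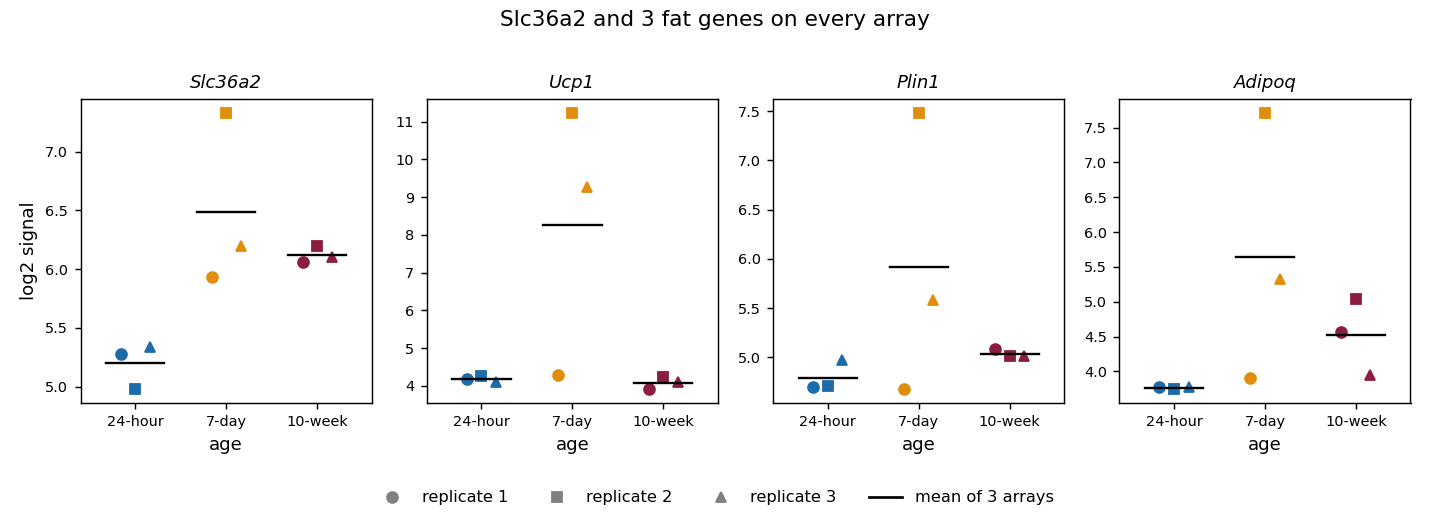
Log2 signal of Slc36a2 and of the fat genes Ucp1, Plin1 and Adipoq on each array, by age, with the mean of 3 arrays as a bar and the replicate number as the marker shape; each panel has its own scale. In all 4 panels 7-day replicate 2 is the highest array, at 7.33 for Slc36a2 and 11.23 for Ucp1.

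Slc36a4 (PAT4), a high-affinity carrier of proline and tryptophan, was called in the later step and not in the first week (0.03). It measured 6.93, 6.81 and 6.92 on the 24-hour arrays, 6.83, 6.98 and 6.94 on the 7-day arrays and 6.19, 6.27 and 6.46 on the 10-week arrays. The 10-week arrays lay below all younger ones, and the gene fell by 0.61 from 7 days (SE 0.08, adjusted p = 0.000156). Slc36a1 (PAT1), a lysosomal carrier, lies beside Slc36a2 and Slc36a3 on chromosome 11. It measured 5.96, 5.96 and 5.97 on the 24-hour arrays, 5.91, 5.96 and 5.94 on the 7-day arrays and 6.09, 6.04 and 6.04 on the 10-week arrays. Its later difference of 0.12 was not called (adjusted p = 0.112). Centring the arrays on their medians made it 0.18 (adjusted p = 0.023) and quantile normalization 0.20 (adjusted p = 0.0132). Slc36a3 stayed between 3.86 and 4.14 and was not called.

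The SLC43 facilitators let amino acids pass without a coupled ion, and their members diverged by 10 weeks. Slc43a1 (LAT3), a carrier of branched-chain amino acids, measured 5.90, 5.95 and 5.89 on the 24-hour arrays, 5.75, 5.75 and 5.87 on the 7-day arrays and 5.26, 5.24 and 5.47 on the 10-week arrays. It fell by 0.47 in the later step (SE 0.07, adjusted p = 0.000607), with no overlap between ages. Slc43a2 (LAT4), with a similar range of substrates, measured 5.30, 5.33 and 5.30 on the 24-hour arrays, 4.97, 5.21 and 5.14 on the 7-day arrays and 5.74, 5.30 and 5.70 on the 10-week arrays. The 10-week arrays lay above all 7-day arrays and overlapped the 24-hour ones. It rose by 0.48 after 7 days (SE 0.11, adjusted p = 0.00722), and without 10-week replicate 2 the difference of 0.27 between 10 weeks and 24 hours (adjusted p = 0.0804) became 0.42 (adjusted p = 0.0028). Slc43a3, which is known to carry purine nucleobases rather than amino acids, measured 9.99, 10.02 and 9.80 on the 24-hour arrays, 9.61, 9.74 and 9.82 on the 7-day arrays and 9.66, 9.90 and 9.99 on the 10-week arrays. The ages overlapped and no difference was called. It lies on chromosome 2 with 1 gene between it and Slc43a1.

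The 25 genes called in none of the comparisons were 10 whose mean passed 5.57 at some age, with array values from 5.66 to 10.02 and no difference above 0.36 in size, and 15 dim ones, with array values from 3.03 to 5.26 and no difference above 0.22. At 24 of the 42 genes (57.1%), and at 10280 of all 19938 (51.6%), the same value to 5 decimals occurred on more than 1 array. What the authors' processing did to give such ties is not stated, and where they fall within an age the measured spread is small.

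Promoters are shown for transporters that differ in their course, to set the data beside 2 short motifs that bind known regulators of amino acid supply. The amino acid response element was searched as TGATGNAA, which ATF4 with a partner binds when amino acids are short, and the E-box as CACGTG, which MYC and the TFE family bind, both on either strand. RefSeq windows of 250 bases before to 50 after the start of the gene (GRCm38.p6) were found for 31 of the 42 genes, 40 windows in all, and none was found for 11. The 11 genes, Slc1a5, Slc7a2, Slc7a3, Slc7a4, Slc7a5, Slc7a12, Slc7a13, Slc36a2, Slc38a1, Slc38a3 and Slc43a3, were thus not searched for either motif. The first motif occurred in 4 of the 40 windows (Slc1a4, Slc7a7 and Slc7a11) and in 3.97% of 32851 windows of all genes. These are counts of windows and not of genes, and windows of a gene can overlap. The TGATGCAA site of Slc7a7 lies in overlapping windows and was counted in each. The E-box occurred in 7 of 40 (Slc1a6, Slc1a7, Slc7a14, Slc36a1, Slc38a5, Slc38a7 and Slc43a1) and in 7.15% of all windows. The windows below read 5′ to 3′ on the strand of the gene, with motif matches in capitals. They lie at chr15:96699679-96699978 on the minus strand for Slc38a2, chrX:8271131-8271430 on the plus strand for Slc38a5, chr11:20332664-20332963 on the minus strand for Slc1a4 and chr3:50443564-50443863 on the minus strand for Slc7a11.
Slc38a2: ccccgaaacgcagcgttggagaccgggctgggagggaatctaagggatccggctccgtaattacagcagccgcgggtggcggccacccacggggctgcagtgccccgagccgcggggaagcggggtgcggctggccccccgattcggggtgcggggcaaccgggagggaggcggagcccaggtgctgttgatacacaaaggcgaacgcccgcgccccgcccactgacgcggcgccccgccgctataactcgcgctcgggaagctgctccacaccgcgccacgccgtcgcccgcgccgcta
Slc38a5: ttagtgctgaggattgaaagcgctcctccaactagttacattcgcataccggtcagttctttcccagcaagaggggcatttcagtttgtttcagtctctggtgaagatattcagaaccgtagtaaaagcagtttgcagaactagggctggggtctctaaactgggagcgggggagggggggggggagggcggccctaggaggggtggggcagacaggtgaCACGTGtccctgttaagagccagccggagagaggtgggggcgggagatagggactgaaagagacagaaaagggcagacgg
Slc1a4: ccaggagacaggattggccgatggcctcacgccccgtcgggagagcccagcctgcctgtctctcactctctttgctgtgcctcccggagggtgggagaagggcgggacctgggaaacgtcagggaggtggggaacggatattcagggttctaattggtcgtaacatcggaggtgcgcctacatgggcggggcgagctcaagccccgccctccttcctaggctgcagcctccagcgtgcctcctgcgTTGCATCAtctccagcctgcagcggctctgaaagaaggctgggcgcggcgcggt
Slc7a11: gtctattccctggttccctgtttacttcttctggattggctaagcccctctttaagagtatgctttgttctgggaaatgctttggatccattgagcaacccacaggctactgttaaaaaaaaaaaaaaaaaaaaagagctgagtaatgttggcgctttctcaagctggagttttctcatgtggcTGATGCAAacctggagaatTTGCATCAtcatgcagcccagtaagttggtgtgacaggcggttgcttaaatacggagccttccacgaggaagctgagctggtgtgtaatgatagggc
Slc38a2, which fell 2.17-fold after 7 days, has no match in its window. Sequence outside the windows, such as introns, was not searched, so an absent match does not show that a gene lacks the motif. Slc38a5, which fell in both steps, has 1 E-box, and Slc7a11, which stayed within 3.39 to 3.51, has the response element on each strand. A match is a description of these letters and not a binding site, and genes with a match included called and uncalled ones.

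For every list of pathway or marker genes, the shares to set beside its counts are those of all genes. These were 17.0% higher and 18.9% lower in the later step, and 5.27% higher and 4.81% lower in the first week. The list of glutamine and glutamate metabolism, which holds both synthesis and breakdown, had 13 tested genes. Of these, 11 were higher and 2 lower at 10 weeks than at 7 days, with a median log2 difference of 0.61 against 0.04 for all genes. Glul, which makes glutamine from glutamate, averaged 10.11 ± 0.14 at 10 weeks and 8.73 ± 0.11 at 7 days (SD, n = 3 each), a rise of 1.37 (adjusted p = 1.86e-05). Aldh4a1 and Prodh, which break down proline to glutamate, rose by 1.98 and 1.13, and Abat, which breaks down GABA, by 1.62. The 2 that fell were Aldh18a1, which makes proline from glutamate, by 0.95, and Asns, which uses glutamine to make asparagine, by 0.57; Asns was chosen after its values were seen. In the first week 5 of the 13 fell, Abat the most, by 0.80, and 1, the alanine transaminase Gpt2, rose by 0.76.

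Of 21 tested genes of branched-chain amino acid breakdown, 18 were higher and 1 was lower at 10 weeks than at 7 days, with a median difference of 1.05. Ivd, which oxidises the product of leucine, rose by 1.85, Bckdha, a subunit of the branched-chain ketoacid dehydrogenase, by 1.71, its activating phosphatase Ppm1k by 1.59 and Auh, a later enzyme of leucine breakdown, by 1.37. Bcat1, the cytosolic transaminase, chosen after its values were seen, was the 1 that fell, by 0.39. In the first week 9 of 21 fell and none rose, among them Aldh6a1 by 0.61 and Bckdhb by 0.55. Over the later step the carriers of branched-chain amino acids differed among themselves: Slc7a5 and Slc43a1 fell, Slc43a2 rose and Slc7a8 was not called.

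The lists of amino acid synthesis and sensing were mixed. Of 15 genes of serine and glycine synthesis and use, 2 were higher and 6 lower at 10 weeks than at 7 days, led by Psat1 of serine synthesis, which fell by 1.53, the mitochondrial folate enzyme Aldh1l2, which fell by 1.22, and Gcsh of glycine cleavage and the cytosolic folate enzyme Aldh1l1, which rose by 0.86 and 0.78. Of 21 genes of the amino acid response, which include Psat1 and Aldh1l2, 5 rose and 7 fell in that step, among them Phgdh of serine synthesis, which fell by 0.72, and the transcription factor Atf5, which rose by 0.61. In the first week 5 of them rose and 2 fell, led by the stress gene Nupr1, which rose by 1.06, and the mitochondrial serine enzyme Shmt2, which fell by 0.65. Of 34 genes of amino acid sensing by mTORC1, 9 were higher and 4 lower at 10 weeks than at 7 days. Sesn1, a leucine-sensor family gene, rose by 1.03, the mTORC1 inhibitor Tsc2 by 0.70, the folliculin partner Fnip2 by 0.67 and the mTOR inhibitor Deptor by 0.57. Eif4ebp1, a target of mTORC1, fell in both steps, by 0.22 and then by 0.41. Of 21 genes of cytosolic aminoacyl-tRNA synthetases and their accessory proteins, 3 were called in that step: the accessory protein gene Aimp1 was 0.44 higher and the synthetase gene Kars 0.31 higher, and the synthetase gene Farsa fell by 0.22. Of 13 genes of arginine and polyamine metabolism 3 fell, among them the antizyme inhibitor Azin1 by 1.02, and none rose.

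Of 14 genes of glutathione synthesis and cysteine supply, 4 were higher and none lower at 10 weeks than at 7 days, among them Cth, which makes cysteine, by 1.04 and Gpx4, which reduces lipid peroxides, by 0.97. The 27 transporters of amino acids, taurine and peptides in other families had 3 higher and 3 lower members in that step, with 17.0% and 18.9% of all genes. Slc17a7, a vesicular glutamate transporter, rose by 1.61 and the glycine carrier Slc6a9 fell by 0.62. The taurine carrier Slc6a6 fell by 0.65 in the first week (adjusted p = 0.00184).

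**Figure D4:**
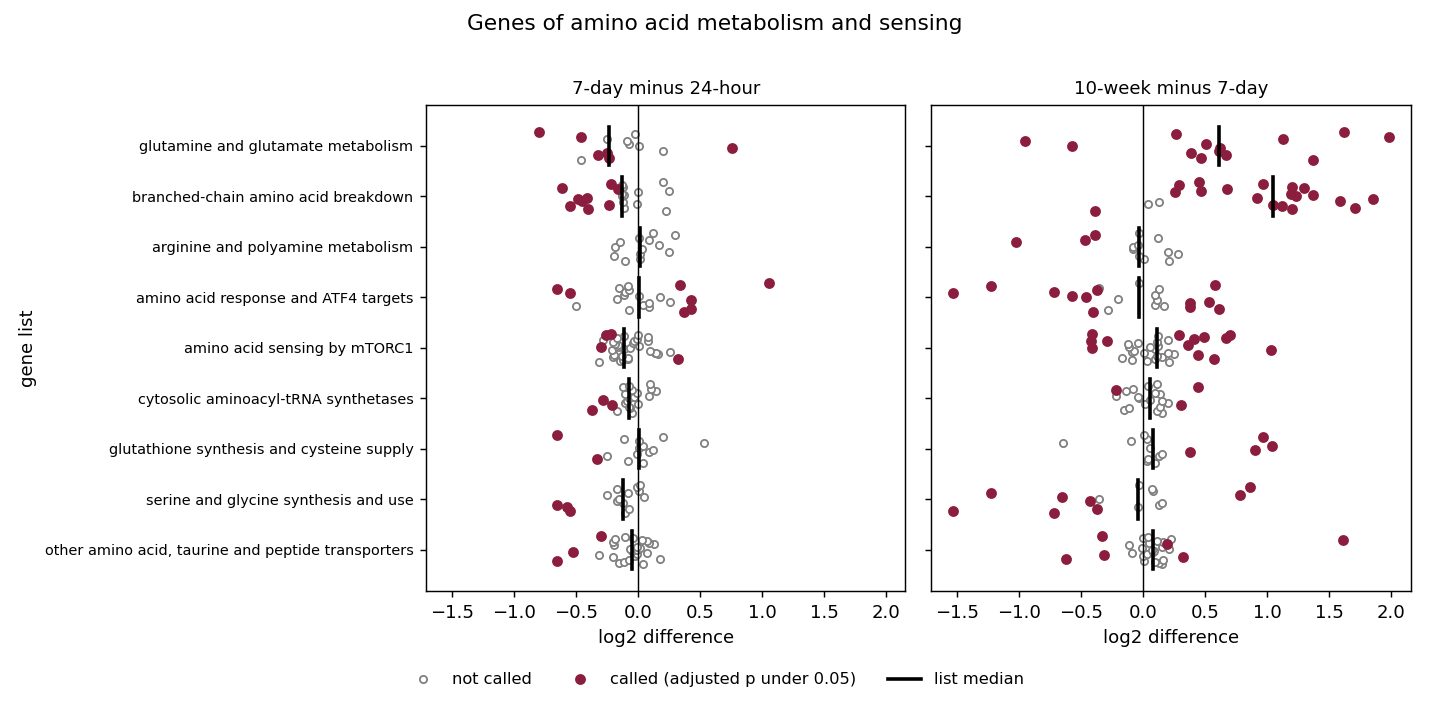
Log2 differences of single genes in 9 lists of amino acid metabolism and sensing, for 7-day minus 24-hour and 10-week minus 7-day hearts, with called genes filled and the list median as a bar. The lists of glutamine and glutamate metabolism and of branched-chain amino acid breakdown lie mostly right of 0 in the second panel, with medians of 0.61 and 1.05.

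Cell type markers moved over the same steps as the transporters. Ventricular cardiomyocyte markers were high at every age, with a list mean of 12.38 to 12.40 at 24 hours, 12.29 to 12.37 at 7 days and 12.30 to 12.32 at 10 weeks. Between 7 days and 10 weeks 1 of 10 was called, Nppa, which fell by 0.44 and is also on the atrial list. Between 10 weeks and 24 hours 2 were higher and 5 lower, with 19.5% and 20.6% of all genes, at a median log2 difference of -0.11. All 10 markers of proliferating cells were lower at 10 weeks than at 7 days, with a list mean of 4.85 to 5.13 at 10 weeks and 7.68 to 7.72 at 7 days. Of 10 fibroblast markers 7 were lower, with a list mean of 8.71 to 8.93 at 10 weeks and 10.04 to 10.38 at 7 days. All 6 atrial markers were lower at 10 weeks than at each younger age. Their list mean was 9.15 to 9.76 at 24 hours and 9.75 to 10.23 at 7 days. On the 10-week arrays it was 6.43, 7.95 and 7.56, so atrial signal differed between arrays of that age. The part of proliferating cells, fibroblasts or atrial tissue in the falls of Slc38a1, Slc38a2, Slc38a5, Slc7a5, Slc7a6, Slc7a7, Slc36a4 and Slc43a1 was not tested. The 7-day replicate 2 and the 24-hour replicate 1 also carried the airway transcript Scgb1a1, at 6.83 and 5.83. The mean of 6 airway markers was 5.15 and 5.20 on these arrays and from 3.74 to 3.91 on the others. The mean of 8 liver and plasma protein markers was 4.89 on 7-day replicate 2 and from 4.11 to 4.41 on the others. The part of such transcripts in the transporter results was not tested.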

How the data were processed

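The values are log2 intensities that the authors deposited, 1 per feature and array. MAS5 5.0 is named per the submitters' processing notes, and how probes were summarised and arrays normalized is not given in the sources used here. Of 35556 features, 21789 carry 1 gene symbol in the platform table (1621 carry several and 12146 are not listed), and symbols were updated by Entrez id for 21698. The feature with the highest mean was kept per gene. Array medians lay between 4.876 and 4.924, and no further scaling was applied. All 9 arrays entered 1 limma fit (version 3.58.1 in R 4.3.3; a mean for each age, eBayes with intensity trend), with 6 residual degrees of freedom and Benjamini-Hochberg adjustment over 19938 genes. Tables were made with Python 3.11.15. The fit was also run on simulated data with independent noise for each gene and array. Those data lacked the ties and the joint shifts of fat or airway transcripts seen here, so they do not show how calls fare under either. Precision is limited by the number of arrays. The members and the gene lists were chosen with earlier results of these data known. Values on every array are given for the largest rises and falls, for genes that turned and for a fixed set of transporters; genes of the pathway and marker lists are named from among the 4 largest called differences of a list in each comparison, not all of which are printed, and any other is marked. No genome build is named for the array, so coordinates are given for RefSeq promoter windows only.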

Additional observations from a re-analysis of the deposited data

How the results depend on the processing

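Over 18 alternatives (other variance priors, centring, quantile normalization, only the arrays compared, dim genes left out, the dimmer probe set, a replicate block and arrays left out), 22 of the 35 calls were kept under every setting run, 13 were lost under at least 1 and 0 changed sign. Leaving out 1 array at a time gave 1 to 3 higher and 3 to 6 lower genes for 7-day against 24-hour hearts, 4 to 6 and 8 to 9 for 10-week against 7-day hearts, and 2 to 4 and 8 to 10 for 10-week against 24-hour hearts. Without both 7-day replicates 2 and 3, 0 genes were higher in the first week and 3 were higher at 10 weeks than at 24 hours. Between 10 weeks and 24 hours there were 3 higher genes after quantile normalization and 3 with only its 6 arrays. With dim genes left out, 2 were higher at 10 weeks against each younger age. With at least a 2-fold change required, 1 was higher and 0 were lower in the first week, 1 and 3 in the later step, and 1 and 4 between 10 weeks and 24 hours. With the replicate number as a block, 3 higher and 4 lower, 4 and 9, and 4 and 9 genes were called in the same order of comparisons. Deviations of same-numbered arrays correlated at -0.1738 to 0.1334, and those of differently numbered arrays at -0.2158 to 0.2501. No pairing by number was thus seen, but correlations over so few arrays cannot exclude it. Differences at dim signals can be understated, and no detection flags mark the values near background.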
